A study of Danio rerio with 25 samples.

Results

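The changes described here are those that went in the same direction with endurance neuromuscular electrical stimulation (eNMES) in 2 genotypes of zebrafish, *dmd* mutants and their WT siblings. All 24 libraries with counts, of 25 named in the series, entered the comparison: 12 from larvae that received eNMES were set against 12 from control larvae, with genotype as a term of the model, so that the difference between mutants and siblings did not count. The mutants carry the sapje allele ta222a of *dmd*, the gene for dystrophin. RNA with polyA tails came from 2 whole larvae per library, taken at 7 dpf (days post-fertilization), and the eNMES groups were stimulated at 2, 3 and 4 dpf. The groups were *dmd* mutants with eNMES (n = 9), *dmd* mutant controls (n = 8), WT siblings with eNMES (n = 3) and WT sibling controls (n = 4). Replicate 1 of the stimulated mutants was not analysed here. Larvae had been grouped before extraction by severity at disease onset and by their change in birefringence, a measure of muscle structure, so the 2 larvae of a library are not a random pair.

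Dystrophin links the cytoskeleton of the muscle fiber to the extracellular matrix, and fibers without it tear when they contract. Electrical stimulation makes the motor system contract on command, in a healthy larva as in a mutant. Setting the genotypes together asks which transcripts moved with stimulation whether or not dystrophin was present. RNA from a whole larva mixes all tissues, and in such data fewer cells of a type and less RNA per cell cannot be told apart.

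Totals lay between 7957160 and 22808348 counts per library, the shallowest being *dmd* eNMES replicate 8. Counts of *dmd* separated the genotypes as labelled, with 1008 to 1435 normalized counts (counts scaled to the mean library size) over the mutant libraries of both treatments and 2588 to 5395 over the sibling libraries. Markers of muscle, liver, pancreas, lens, photoreceptor, neuron, epidermis and intestine were all detected. Component 1 of 40 genes of the circadian clock, the oscillator that sets daily rhythms, lay between -3.06 and -2.42 in WT siblings with eNMES, against 2.26 to 2.82 in WT sibling controls. In WT siblings the clock difference and the treatment cannot be told apart. The *dmd* mutants fell into a set with low *PER2* (5 eNMES and 5 control libraries) and a set with high *PER2* (4 eNMES and 3 control libraries), so both treatments were present in each set, and changes are given below within the sets as well.

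Of 25832 genes tested, 50 were called (0.194%), at a Benjamini-Hochberg adjusted p under 0.1 in edgeR and an absolute log2 fold change over 0.6. Expression was higher with eNMES for 29 genes (0.112%) and lower for 21 (0.0813%). In 46 of the 50 (0.178% of the genes tested) the change had the same direction in both genotypes, and these 46 were 26 higher and 20 lower. All 46 also had the same direction in the 3 strata of siblings, low *PER2* mutants and high *PER2* mutants. The 46 were chosen by their direction in these same libraries, so nothing is read from that agreement. Most were weakly expressed: 33 of the 46 averaged under 50 normalized counts and 13 under 10. The additive effect leans on the mutants, which carry 71.2% of its weight when variances are equal. Of the 46 genes, 19 had an unadjusted p under 0.05 in each genotype and 27 in the mutants only. On its own, the fit called 33 genes in *dmd* mutants (0.128%) and 763 in WT siblings (2.95%), and 20 of the 46 were called in neither genotype alone. Libraries of the 2 treatments did not overlap in WT siblings for 13 of the 46 genes, where 20.3% of all genes tested had no overlap. In *dmd* mutants they did not overlap for 2 of the 46. The share over all genes tested was not computed for mutants, so nothing is read from a lack of overlap there. The count depends on single libraries: without 1 library at a time it was 76 (*dmd* eNMES replicate 2), 33 (*dmd* control 2 and WT control 2, each), 28 (WT control 1), 26 (*dmd* eNMES 7), 25 (*dmd* eNMES 6), 23 (*dmd* eNMES 5 and *dmd* control 6, each), 22 (*dmd* control 1) and 21 (WT eNMES 1), and it stayed within 1.5 times for the other 14. With the set of the library as a term, 91 genes were called (0.352%), among them all 50.

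**Figure D1:**
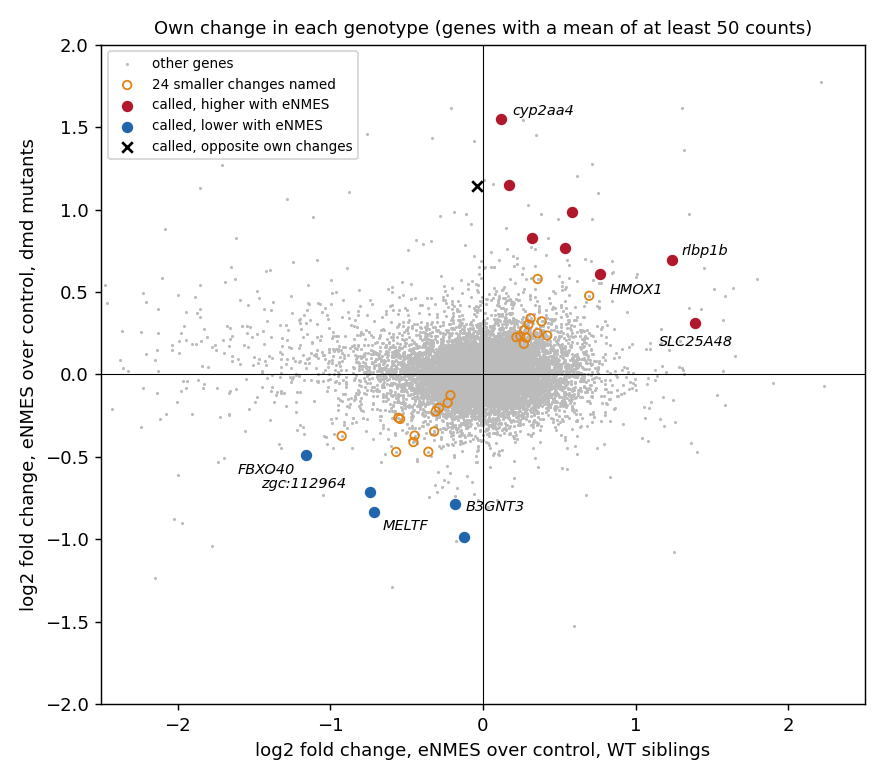
Each point is a gene with a mean of at least 50 normalized counts; the x axis gives its log2 fold change of eNMES over control in WT siblings and the y axis that in *dmd* mutants, and a few points outside the axes are not drawn. Filled circles are the 13 called genes with the same direction in both genotypes, which lie at the upper right and lower left; open circles are the 24 smaller changes named in the text, and the cross is a called gene with opposite own changes.

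Among the lower genes, *MELTF* had the smallest adjusted p. It encodes melanotransferrin, a transferrin family protein anchored to the cell surface that binds iron. WT siblings with eNMES had 303, 353 and 209 normalized counts of *MELTF*, against 519, 472, 487 and 411 in WT sibling controls. In *dmd* mutants the libraries with eNMES lay between 208 and 567 (median 388), against 573 to 851 (median 658) in controls. The treatments did not overlap in either genotype, and the shared log2 fold change was -0.80 ± 0.11 (SE, adjusted p = 0.00613 in edgeR; exact permutation p = 2.35e-06, two-sided). Its own change was -0.71 in WT siblings, -0.95 in the low *PER2* mutants and -0.66 in the high *PER2* mutants.

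*FBXO40* encodes an F-box protein of striated muscle that, in mice, directs the insulin signaling adaptor IRS1 to the proteasome. It had 22.7, 36.2 and 26.8 normalized counts in WT siblings with eNMES, against 65.8, 61.2, 59.3 and 68.3 in WT sibling controls, with no overlap. In *dmd* mutants it had 43.5 to 75.6 (median 55.5) with eNMES, against 63.2 to 87.2 (median 80.1) in controls, and 7 of 9 eNMES libraries lay below every control. The shared log2 fold change of *FBXO40* was -0.66 ± 0.11 (adjusted p = 0.00904, edgeR), with -0.49 in *dmd* mutants and -1.16 in WT siblings.

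The uncharacterized gene *zgc:112964* was lower by a like amount in each stratum, with log2 fold changes of -0.74 in WT siblings, -0.75 in the low *PER2* mutants and -0.73 in the high *PER2* mutants (shared -0.72 ± 0.16, adjusted p = 0.0431, edgeR). It had 37.8, 44.2 and 66.1 normalized counts in WT siblings with eNMES, against 87.7, 88.2, 68.5 and 86.1 in WT sibling controls. In *dmd* mutants it ran from 25.2 to 75.9 with eNMES, against 50.6 to 124 in controls, so the mutant groups overlapped and the sibling groups did not. *B3GNT3*, a glycosyltransferase that extends sugar chains on proteins, had the larger estimate in mutants: its log2 fold change was -0.79 in *dmd* mutants and -0.18 in WT siblings, where 42.6, 50.2 and 79.5 normalized counts with eNMES overlapped 67.6, 62.3, 53.1 and 77.2 in controls. The shared value of *B3GNT3* was -0.61 ± 0.15 (adjusted p = 0.073, edgeR), just inside the minimum fold.

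Among the higher genes was *HMOX1* (ENSDARG00000027529, the only ID with that symbol), which encodes heme oxygenase 1, the enzyme that breaks down heme to biliverdin, iron and carbon monoxide and is induced by oxidative stress. WT siblings with eNMES had 288, 262 and 267 normalized counts, against 183, 177, 148 and 132 in WT sibling controls, and the groups did not overlap. In *dmd* mutants *HMOX1* ran from 132 to 313 (median 217.0) with eNMES, against 97.5 to 221 (median 141) in controls, and 4 of 9 eNMES libraries lay above every control. The shared change was 1.58-fold (log2 0.66 ± 0.14, adjusted p = 0.0332 in edgeR; exact permutation p = 0.000652, two-sided). Neither genotype passed the threshold alone, with 0.61 in *dmd* mutants (adjusted p = 0.18) and 0.77 in WT siblings (adjusted p = 0.111) on the log2 scale. The call held in each of the 24 fits without 1 library, where the adjusted p lay between 0.0104 and 0.0744.

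*rlbp1b* encodes a cellular retinaldehyde-binding protein, which carries retinoids of the visual cycle in supporting cells of the eye. It had 373, 364 and 301 normalized counts in WT siblings with eNMES, against 183, 134, 146 and 122 in WT sibling controls. In *dmd* mutants it ran from 342 to 616 (median 419) with eNMES, against 154 to 538 (median 256) in controls, and all 9 eNMES libraries lay above the control median. The shared log2 fold change of *rlbp1b* was 0.85 ± 0.17 (adjusted p = 0.0267, edgeR). The value in the low *PER2* mutants, 1.1, was near that in WT siblings, 1.24, and the value in the high *PER2* mutants was 0.20.

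*SLC25A48* and *cyp2aa4* had own changes of unequal size. *SLC25A48*, a carrier of the inner mitochondrial membrane, had 725, 593 and 578 normalized counts in WT siblings with eNMES, against 301, 202, 235 and 225 in WT sibling controls. Its log2 fold change was 0.31 in *dmd* mutants and 1.39 in WT siblings (shared 0.62 ± 0.16, adjusted p = 0.074, edgeR), and the difference of these changes passed its own test (adjusted p = 0.0454). *cyp2aa4*, a cytochrome P450 of the CYP2 family, had 63.0 to 162 normalized counts (median 105) in *dmd* mutants with eNMES, against 7.3 to 56.4 (median 37.1) in *dmd* mutant controls, with no overlap. In WT siblings *cyp2aa4* had 33.1, 57.2 and 23.0 with eNMES, against 40.2, 34.2, 13.3 and 49.7 in controls, which overlapped. Its shared log2 fold change was 1.18 ± 0.27 (adjusted p = 0.0546, edgeR), made up of 1.55 in *dmd* mutants and 0.12 in WT siblings, and the difference of these did not pass (adjusted p = 0.208).

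The 3 remaining higher genes that the rule names have no assigned function here. The shared log2 fold change was 0.68 ± 0.14 for *ENSDARG00000086739* (adjusted p = 0.0301), 0.87 ± 0.22 for *si:dkey-201i2.4* (adjusted p = 0.0804) and 0.87 ± 0.24 for *si:ch211-226h7.8* (adjusted p = 0.0984), all from edgeR. All 3 had the larger own change in *dmd* mutants, and for none of them were the WT sibling groups apart.

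**Figure D2:**
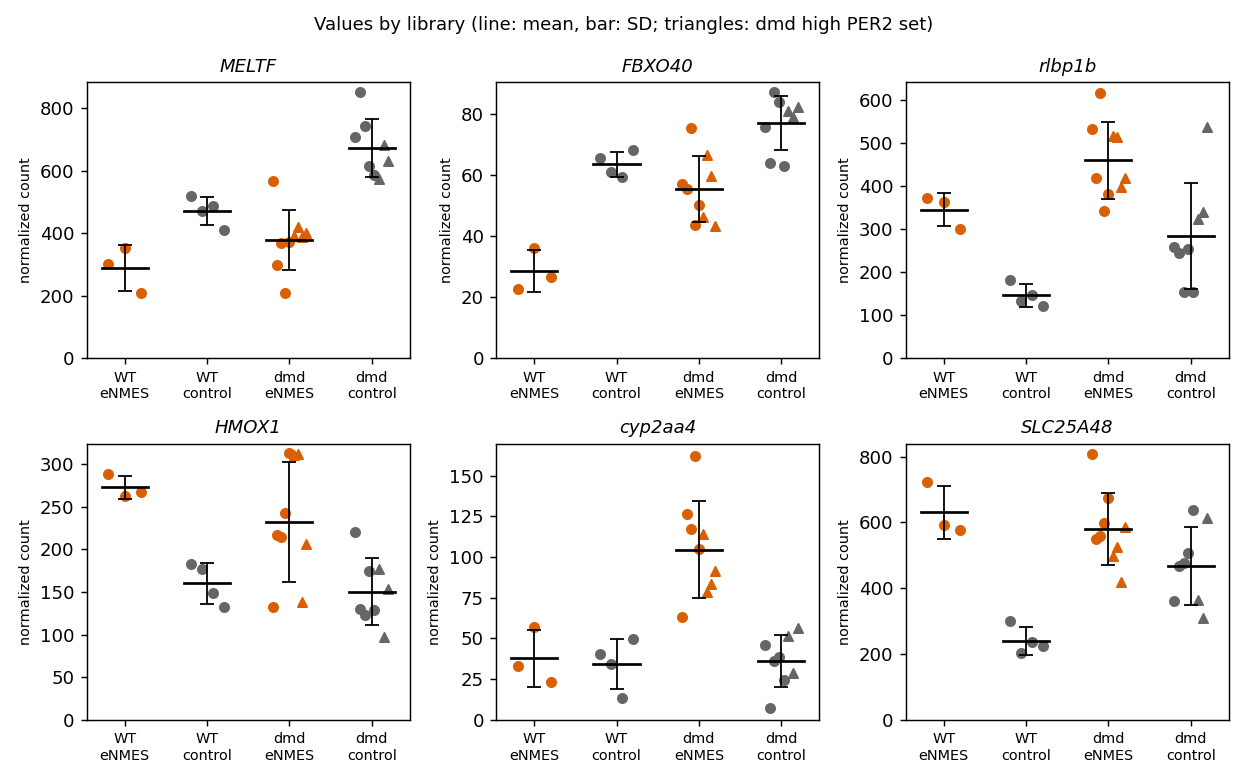
Normalized counts (y axis, from 0) of 6 called genes in each library, by group, with the mean as a line and the SD as a bar; triangles are *dmd* mutants of the high *PER2* set. *MELTF* does not overlap between treatments in either genotype, *HMOX1* is higher with eNMES in both, *cyp2aa4* does not overlap between treatments in *dmd* mutants and *SLC25A48* has its larger difference in WT siblings.

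A few of the called genes under 50 counts are described next, picked after their values were seen. *CRACR2A*, a regulator of store-operated calcium channels in human T cells, had 51.2, 54.6 and 64.3 as the lowest, middle and highest normalized count in WT siblings with eNMES, against 16.6 to 32.8 in WT sibling controls. In *dmd* mutants it had a median of 58.9 with eNMES, against 37.6 in controls, and its shared log2 fold change was 0.73 ± 0.14 (adjusted p = 0.0177, edgeR). *NOS2*, inducible nitric oxide synthase, had medians of 7.66 in WT siblings with eNMES, against 3.62 in WT sibling controls, and of 16.7 in *dmd* mutants with eNMES, against 5.41 in *dmd* mutant controls (shared log2 fold change 1.58 ± 0.36, adjusted p = 0.0464, edgeR). The chemokine gene *ccl20b* was higher with a shared log2 fold change of 1.01 ± 0.24 (adjusted p = 0.0475, edgeR). Its own change was 1.19 in *dmd* mutants and 0.51 in WT siblings, and the treatments overlapped in both genotypes. Another chemokine gene, *cxcl11.3*, was lower (-2.01 ± 0.51, adjusted p = 0.073, edgeR), at a mean of 2.43 normalized counts and with libraries at 0 in every group. The own changes of *cxcl11.3* were -1.84 in *dmd* mutants and -2.84 in WT siblings. *LOXL3*, a lysyl oxidase family enzyme that cross-links collagen and elastin, was lower (-0.62 ± 0.17, adjusted p = 0.0948, edgeR). It changed by -0.685 in *dmd* mutants and -0.473 in WT siblings, and the treatments overlapped in both genotypes. The pair *ENSDARG00000113897* and *si:ch211-209l5.2* had identical values in every library, so their reads could not be divided and the 2 calls are 1 measurement.

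Of the 46 genes, 16 were called in each of the 24 fits without 1 library, 9 were called in all 8 alternative fits, and 7 met both conditions. A gene that an alternative fit filtered out, or gave no adjusted p, counts here as not called in it. The 7 that met both were *MELTF*, *FBXO40*, *CRACR2A*, *rlbp1b*, *HMOX1*, *zgc:112964* and *si:dkey-146m20.14*. Other genes described above lost the call in some of the 24 fits without 1 library. *NOS2* was called in 23 of them, *cxcl11.3* in 18, *B3GNT3* in 14, and *SLC25A48* and *si:dkey-201i2.4* in 11 each. *LOXL3* and *si:ch211-226h7.8* were called in 8 each.

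In 4 of the 50 called genes the own changes had opposite signs, and in each it was the mutants that moved. *pih1d2*, a PIH1 domain gene of the group that assembles dynein arms of cilia, had 6.78 to 23.8 normalized counts (median 14.2) in *dmd* mutants with eNMES, against 18.2 to 55.4 (median 39.4) in *dmd* mutant controls. Its log2 fold change was -1.48 in *dmd* mutants and 0.06 in WT siblings, and the difference passed its own test (-1.54, adjusted p = 0.069, edgeR). *pimr107*, a gene of the Pim kinase related family, was at 0 in all 8 *dmd* mutant controls and had a median of 10.0 and a highest value of 23.8 in *dmd* mutants with eNMES, 2 of which were at 0; in WT siblings 1 control library had 1.04 and the others 0. Copies in that family resemble each other, so the split of reads among them is uncertain. The copy *pimr106* was called lower (shared log2 fold change -3.7, adjusted p = 0.097, edgeR). It had a mean of 0.764 normalized counts and was at 0 in every eNMES library. *pimr107* was called in 5 of the 8 alternative fits. The remaining called genes with opposite own changes were *si:dkey-100h21.2*, with log2 fold changes of 1.33 in *dmd* mutants and -0.09 in WT siblings, and *si:ch211-103n10.5*, with 1.14 and -0.04 for the same genotypes.

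The 2 genotypes share no library, so their own changes could be set side by side. An unadjusted p under 0.05 in each genotype was reached in the same direction by 369 genes (1.43%), 220 of them higher and 149 lower, and in opposite directions by 164 genes (0.635%). At an unadjusted p under 0.01 in each, the counts were 73 in the same direction and 20 in opposite directions. Over all genes tested, 52.2% had the same direction. Of 2653 genes with an unadjusted p under 0.05 in *dmd* mutants, 62.3% had the same direction in WT siblings; of 4525 such genes in WT siblings, 52.5% had the same direction in *dmd* mutants. The 369 genes had a median absolute log2 fold change of 0.22 in *dmd* mutants and 0.36 in WT siblings. Without replicate 1 of the WT siblings with eNMES the count in the same direction was 219.

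Below the minimum fold, more genes passed. At an adjusted p under 0.1 and any fold there were 359 genes (1.39%), 220 higher (0.852%) and 139 lower (0.538%), and in 354 of them the direction was the same in both genotypes. The 309 of these at or under the minimum had a median absolute log2 fold change of 0.25 and a median of 564 normalized counts, against 24.3 for the 46 genes over it. Near the limit, *SLC16A9* at 0.58 was the nearest gene outside and *B3GNT3* at -0.61 the nearest inside. From 177 of these genes with a symbol, a mean of at least 50 counts and an unadjusted p under 0.05 in each genotype, the 12 higher and 12 lower with the smallest adjusted p are described next; this choice was made after the values were seen. All 24 had the same direction in the 3 strata and kept an adjusted p under 0.1 without any 1 library, the largest being 0.0668. The 24 were chosen by direction and p in these same libraries, so this is a description and no further support.

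The higher genes of this kind included *CACNG1* and *mb*, genes of skeletal muscle. Muscle genes did not rise as a set: in the list of fast and slow muscle, 29 of 53 genes had a lower estimate and 24 a higher one. *CACNG1*, the gamma subunit of the muscle L-type calcium channel, had 763 to 862 normalized counts in WT siblings with eNMES, against 608 to 748 in WT sibling controls. In *dmd* mutants it had 750.5 to 939.8 (median 849) with eNMES, against 617 to 782 (median 663) in controls. The shared log2 fold change of *CACNG1* was 0.30 ± 0.05 (adjusted p = 0.00904, edgeR), and the own changes were 0.30 in both genotypes. Myoglobin, *mb*, the oxygen store of oxidative fibers, was 1.45-fold higher (log2 0.54 ± 0.09, adjusted p = 0.00978, edgeR), with 307 to 550.4 normalized counts in WT siblings with eNMES, against 221 to 291 in WT sibling controls, and 341 to 567 in *dmd* mutants with eNMES, against 261 to 368 in *dmd* mutant controls. The sibling groups did not overlap for either gene and the mutant groups did.

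Of the other higher genes, some act in metabolism or degradation. *ARG2*, the mitochondrial arginase, had a log2 fold change of 0.34 ± 0.06 (adjusted p = 0.00904), with means of 6793 ± 827 normalized counts in WT siblings with eNMES (SD, n = 3), against 5207 ± 430 in WT sibling controls (SD, n = 4). *AMPD3*, an AMP deaminase, had 0.28 ± 0.05, *TXLNB*, a taxilin found in muscle, 0.22 ± 0.04, and *INPP5K*, an inositol phosphate phosphatase, 0.27 ± 0.05. The lysosomal genes *ifi30a*, a thiol reductase, and *rnaset2*, a ribonuclease, had 0.33 ± 0.06 and 0.29 ± 0.06. *NUCB1*, a calcium-binding protein of the Golgi, changed by 0.21 ± 0.04 and was the 1 gene of the 24 that did not overlap in either genotype. As the share of all genes tested without overlap was not computed for mutants, nothing is read from this. *NUCB1* ran from 1477 to 1651 normalized counts in WT siblings with eNMES, against 1249 to 1408 in WT sibling controls. In *dmd* mutants it ran from 1231 to 1503 with eNMES, against 1063 to 1226 in controls. *GPR155*, *ptp4a3b* and *si:ch211-28p3.4* had shared log2 fold changes of 0.24, 0.24 and 0.52.

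Among the lower genes, *vcanb* encodes versican, a large proteoglycan of the extracellular matrix. It had 702 to 901 normalized counts in WT siblings with eNMES, against 1063 to 1322 in WT sibling controls, and 726 to 1236 (median 933) in *dmd* mutants with eNMES, against 978 to 1566 (median 1276) in *dmd* mutant controls. The shared log2 fold change of *vcanb* was -0.50 ± 0.08 (adjusted p = 0.00978, edgeR), with -0.47 in *dmd* mutants and -0.57 in WT siblings. *mmp30*, a matrix metalloproteinase, and *WFDC1*, a secreted protein with a WAP domain, had -0.42 ± 0.09 and -0.44 ± 0.08, and *crispld1b*, a secreted protein with a CAP domain, -0.52 ± 0.10. The own changes of *crispld1b* were unequal, with -0.37 in *dmd* mutants and -0.93 in WT siblings, and their difference did not pass (adjusted p = 0.169, edgeR). A further group belongs to neurons, glia and photoreceptors. *eno2*, neuronal enolase, had -0.15 ± 0.03, *SLC1A2*, the glutamate transporter of glia, -0.19 ± 0.04, and *grk1b*, a photoreceptor kinase, -0.35 ± 0.07. Outside that group, *tuba1b*, an alpha tubulin, had -0.39 ± 0.07. *AKR1B1*, aldose reductase, *MGST3*, a microsomal glutathione transferase, and the transporter *abcg2a* had -0.35 ± 0.07, -0.34 ± 0.07 and -0.25 ± 0.05, and *si:ch211-132d3.4* had -0.23 ± 0.05. Unless given for 1 genotype, the log2 values of these and the preceding higher genes are shared fold changes with their SE. The sibling groups did not overlap for 22 of the 24 genes, against 20.3% of all genes tested. The 24 were chosen by their p in each genotype, so nothing is read from that count.

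**Figure D3:**
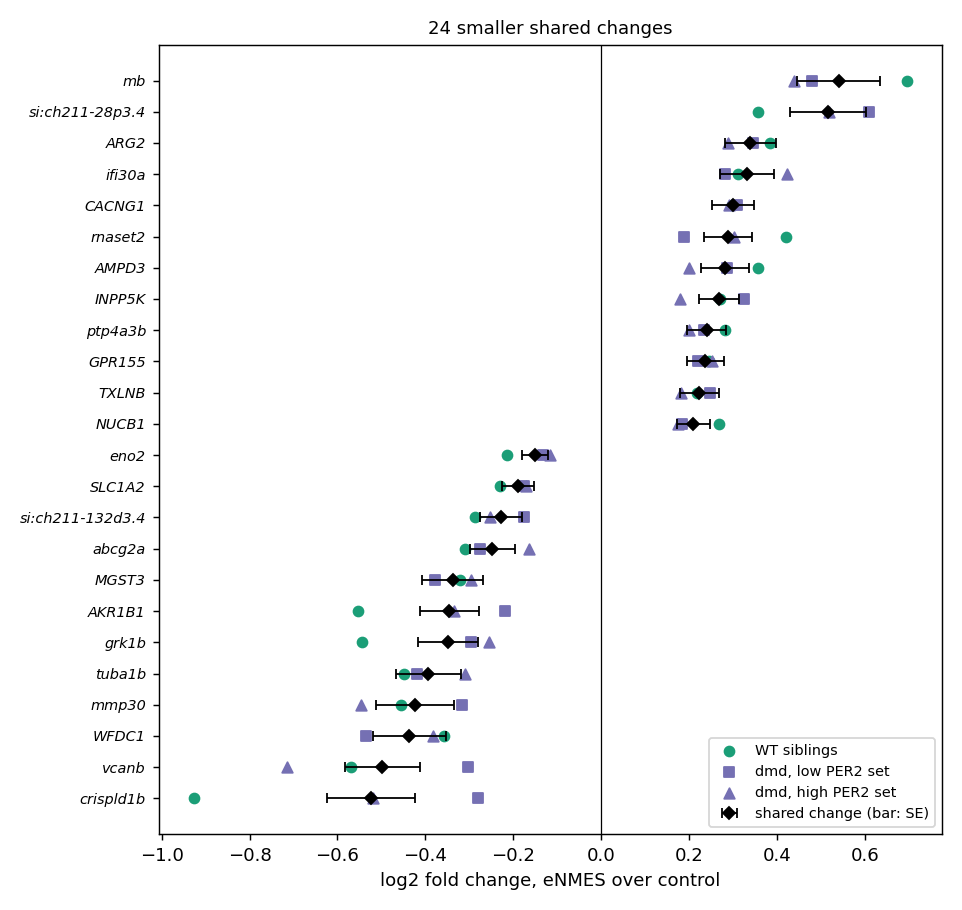
Log2 fold change of eNMES over control (x axis) for the 24 smaller shared changes: diamonds give the shared value with its SE, circles WT siblings, squares the *dmd* mutants of the low *PER2* set and triangles those of the high *PER2* set. Every marker of a gene lies on the same side of 0, from *mb* at 0.54 to *crispld1b* at -0.52. The genes were chosen for the same direction in both genotypes.

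In 24 lists of genes for pathways and tissues, members that passed at an adjusted p under 0.1 at any fold were few. Over all genes tested, 0.852% were higher and 0.538% lower at that threshold. Of the 25832 genes tested, 13083 had a lower estimate and 12749 a higher one. The extracellular matrix list had the most members that fell: of 68 genes tested, 54 had a lower estimate, 5 fell at that threshold and 1 rose, and the median log2 fold change was -0.12, with -0.10 in *dmd* mutants and -0.11 in WT siblings, against -0.00207 over all genes tested. Members that fell were *LOXL3* (above), *TNC*, the matrix protein tenascin C (-0.22 ± 0.05, adjusted p = 0.0569, edgeR), *COL11A1* (-0.27 ± 0.07, adjusted p = 0.0948) and *COL2A1* (-0.22 ± 0.06, adjusted p = 0.0804), both collagens of cartilage, and 1 copy of thrombospondin 4, *THBS4* ENSDARG00000102777 (-0.21 ± 0.05, adjusted p = 0.0719). The member that rose was the other copy, *THBS4* ENSDARG00000020072 (0.17 ± 0.04, adjusted p = 0.0867). At an unadjusted p under 0.05, 27 members were lower and 2 higher, where 5.9% of all genes tested were lower and 7.36% higher. In the list of cell-matrix adhesion no member passed among 51 in the additive edgeR fit, with a median of -0.04. At an unadjusted p under 0.05 in that fit, 8 were lower and 0 higher. DESeq2 passed 1 lower, and edgeR with the library set as a term 1 lower. Single list members, here and below, are given by their shared change, in which the mutants weigh more, unless values of each genotype are printed. A shared value alone does not show that both genotypes moved.

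The epidermis list had a median of -0.13 over 45 genes (-0.07 in *dmd* mutants, -0.25 in WT siblings), and 3 members fell: *krt4* and *krt92*, keratins of the skin, and *anxa1c*, an annexin. At an unadjusted p under 0.05 in edgeR, 17 members were lower and 2 higher. *krt4* averaged 50211 ± 4686 normalized counts in WT siblings with eNMES (SD, n = 3), against 69770 ± 5635 in WT sibling controls (SD, n = 4), and 61771 ± 11422 in *dmd* mutants with eNMES (SD, n = 9), against 74678 ± 9134 in *dmd* mutant controls (SD, n = 8). The summed TPM (transcript abundance scaled to the same total in every library) of the 3 epidermal markers ran from 3951 to 4223 in WT siblings with eNMES, against 4988 to 5862 in WT sibling controls, and from 3179 to 5874 in *dmd* mutants with eNMES, against 5072 to 6566 in *dmd* mutant controls. The sibling ranges were apart and the mutant ranges overlapped. The part of this lower epidermal level in the lower matrix genes was not tested. In the list of nervous system markers 29 of 32 genes had a lower estimate, where 13083 of 25832 genes tested did, and the median was -0.08. At an unadjusted p under 0.05 in edgeR, 12 members were lower and 0 higher, where 5.9% of all genes tested were lower and 7.36% higher. *SLC1A2* and *STMN2*, a regulator of microtubules in neurons, were among those that fell at an adjusted p under 0.1. The summed TPM of the 4 neuronal markers ran from 522 to 567 in WT siblings with eNMES, against 515 to 579 in WT sibling controls, and from 453 to 505.1 in *dmd* mutants with eNMES, against 469.7 to 516 in *dmd* mutant controls, and overlapped in both. The intestine list had a median of -0.10 over 42 genes, with 9 lower and 1 higher at an unadjusted p under 0.05 in edgeR. *FABP2*, the intestinal fatty acid-binding protein, and *MTTP*, which loads lipid onto lipoproteins, fell (-0.34 ± 0.08 and -0.28 ± 0.07, adjusted p = 0.0695 each, edgeR).

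The list of muscle atrophy and FoxO targets stood highest, with a median of 0.09 over 40 genes (0.17 in *dmd* mutants, 0.02 in WT siblings). Its estimate was higher for 31 genes, where 12749 of 25832 genes tested had a higher estimate. At an unadjusted p under 0.05, 15 were higher and 1 lower (7.36% and 5.9% of all genes tested). After adjustment 2 rose, *FBXO32*, the muscle ubiquitin ligase atrogin-1 (0.38 ± 0.09, adjusted p = 0.0653), and *PIK3IP1*, an inhibitor of PI3 kinase (0.25 ± 0.05, adjusted p = 0.0268). *FBXO32* had 2984 to 3291 normalized counts in WT siblings with eNMES, against 2160 to 2569 in WT sibling controls, with no overlap, and a median of 2302 in *dmd* mutants with eNMES, against 1689 in *dmd* mutant controls. Among 53 genes of fast and slow muscle, the slow myosin gene *smyhc1* rose (0.21 ± 0.05, adjusted p = 0.074, edgeR). It was the 1 member that passed in that fit. DESeq2 passed 2 higher and 1 lower, and the fit with the library set as a term 1 higher and 1 lower. The median of the list was -0.02, and the own medians differed in sign, with 0.04 in *dmd* mutants and -0.14 in WT siblings. Its summed TPM ran from 88051 to 93427 in WT siblings with eNMES, against 95587 to 104768 in WT sibling controls. In *dmd* mutants the sum ran from 92831 to 122412 with eNMES, against 96934 to 116268 in controls, which overlapped. In the regeneration list (28 genes, median 0.03), *CDH15*, the cadherin of satellite cells, fell (-0.21 ± 0.05, adjusted p = 0.0581, edgeR). In the list of neuromuscular junction and excitation (45 genes, median 0.03), *CACNG1* was the only member that passed.

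In the list of macrophages and neutrophils, *NOS2* and *cd68*, a lysosomal protein of macrophages, rose (*cd68* 0.41 ± 0.11, adjusted p = 0.0867, edgeR). Members of the list went both ways, with 9 higher and 9 lower at an unadjusted p under 0.05 in edgeR. DESeq2 passed 4 higher and 2 lower. The medians of the list differed in sign between genotypes, with 0.12 in *dmd* mutants and -0.14 in WT siblings over 45 genes. Among 34 genes of the heme and NRF2 list (median 0.01), *HMOX1* was the 1 that passed in edgeR at any fold; DESeq2 passed 4, all higher, and edgeR with the library set as a term 3, all higher. Among 63 genes of cytochrome P450 and detoxification, *cyp2aa4* and *ahr2*, an aryl hydrocarbon receptor, rose, and *cyp2x9*, *ugt2b1* and *sult2st2* fell. The median of that list was -0.04 for the shared change, but 0.01 in *dmd* mutants and 0.07 in WT siblings. *rlbp1b* rose and *grk1b* and *gnb3b*, a transducin subunit, fell in the phototransduction list (61 genes, median -0.10). Its own medians were -0.01 in *dmd* mutants and -0.12 in WT siblings. In the list of liver plasma proteins (56 genes, median 0.02), *F9*, coagulation factor IX, rose (0.53 ± 0.12, adjusted p = 0.0489, edgeR) and *A1CF* fell. *CPA1* fell in the exocrine pancreas (28 genes, median -0.09), *MVK* in cholesterol synthesis (31 genes, median -0.08), and *CCN2* rose among immediate-early genes (33 genes, median -0.13) and *CRHBP* among genes of glucocorticoid and handling stress (32 genes, median -0.09). The medians of these last 2 lists differed in sign between genotypes, with 0.05 in *dmd* mutants for each and -0.55 and -0.32 in WT siblings.

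No member passed at any fold in edgeR in 6 further lists. At an unadjusted p under 0.05 there were 3 members of 25 among MAP kinase regulators, 1 of 31 among heat shock genes and chaperones, 3 of 58 among lens crystallins, 2 of 54 in the cell cycle, 13 of 57 in mitochondrial oxidation and 3 of 40 in the circadian clock. Over all genes tested the share at that p was 13.3%. DESeq2 called 1 lens crystallin and 1 gene of mitochondrial oxidation at any fold and none in the other 4 lists. With the library set as a term, 4 clock genes, 3 genes of mitochondrial oxidation and 1 MAP kinase regulator passed as lower and 1 lens crystallin as higher. The set was defined from the clock genes themselves, so nothing is read from the 4 clock genes that passed with it. The medians of the 6 lists were -0.04, -0.02, -0.02, -0.02, -0.04 and -0.11 in the order first given. Own medians differed in sign for lens crystallins (-0.07 in *dmd* mutants, 0.08 in WT siblings) and the cell cycle (-0.02 and 0.06). They also differed in sign for the clock, described below.

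**Figure D4:**
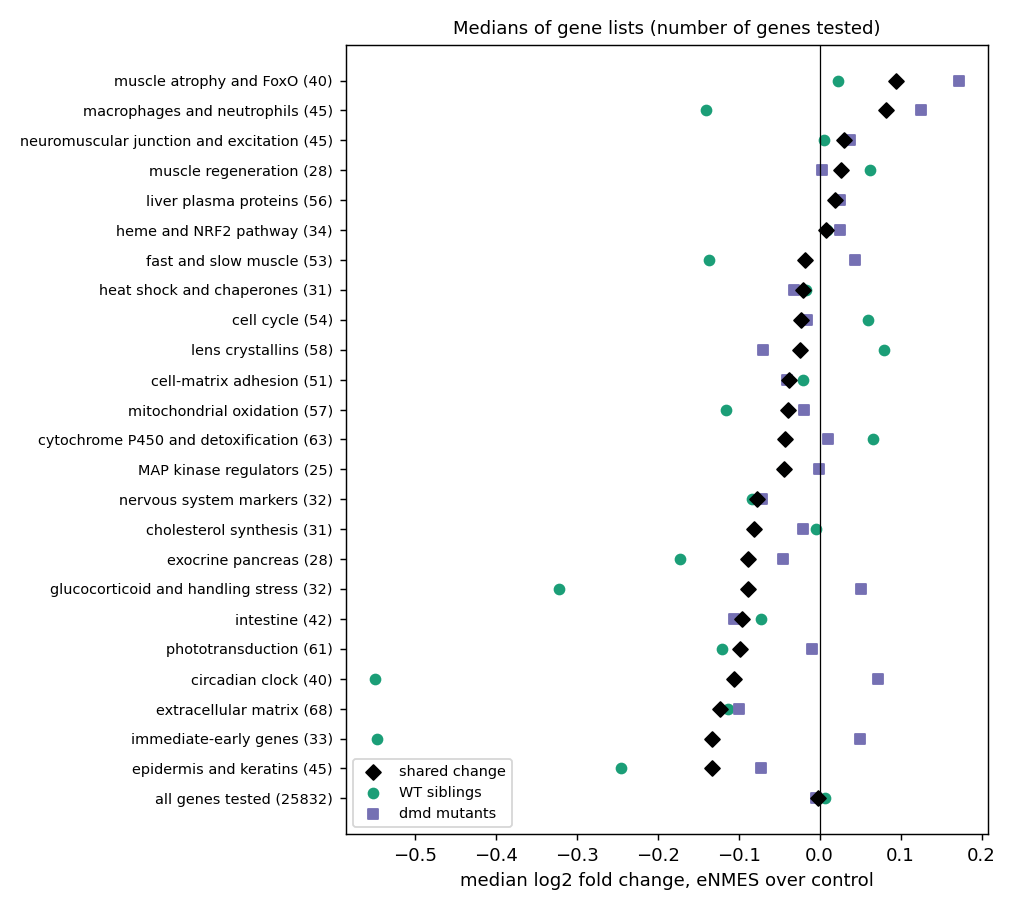
Median log2 fold change of eNMES over control (x axis) over the members of each gene list, for the shared change (diamonds), WT siblings (circles) and *dmd* mutants (squares), with all genes tested at the bottom. The extracellular matrix list is low in both genotypes, near -0.1, and the epidermis, intestine, exocrine pancreas and nervous system lists are also below 0 in both. The clock and immediate-early lists are near -0.55 in WT siblings and slightly above 0 in *dmd* mutants.

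The clock list shows how the sets of libraries bear on the shared change. Its median was 0.07 in *dmd* mutants and -0.55 in WT siblings. *PER2*, a light-responsive repressor of the clock, had 424, 386 and 445 normalized counts in WT siblings with eNMES, against 1904, 1761, 1728 and 1850 in WT sibling controls. Within the low set of *dmd* mutants it averaged 568.2 ± 61.4 with eNMES (SD, n = 5), against 959 ± 148 in controls (SD, n = 5), and the ranges of 507 to 653 and 815 to 1180 were apart. Within the high set it averaged 2408 ± 851 with eNMES (SD, n = 4), against 2853 ± 918 in controls (SD, n = 3), with ranges of 1740 to 3654 and 2168 to 3896, which overlapped. The additive fit without the sets gave a log2 fold change of -0.75 ± 0.42 (adjusted p = 0.454, edgeR). The exact permutation without the sets, two-sided and not adjusted, gave p = 0.0301. With the set as a term the log2 fold change was -0.97 (adjusted p = 0.0273, edgeR), and *PER2* was called. The set was defined from the clock genes themselves, *PER2* among them.

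**Figure D5:**
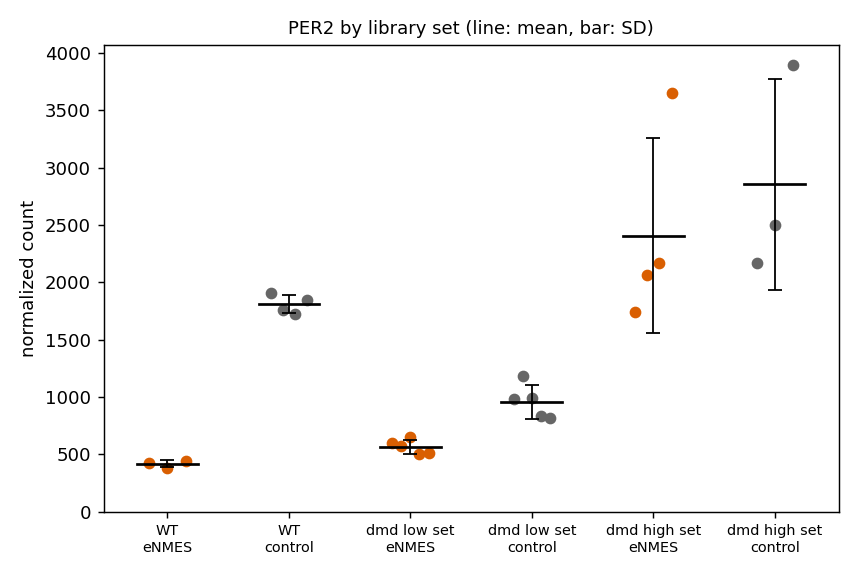
Normalized counts of *PER2* (y axis, from 0) by library in WT siblings and in the 2 sets of *dmd* mutants, eNMES left of control in each, with the mean as a line and the SD as a bar. The eNMES libraries lie below all controls in WT siblings and in the low set, and overlap them in the high set.

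Among the genes the study names from these data, *TGFBI*, a matrix protein that binds collagen, had a shared log2 fold change of -0.13 ± 0.06 (adjusted p = 0.356, edgeR), with -0.12 in *dmd* mutants and -0.17 in WT siblings. The symbol *POSTN*, periostin, belongs to 2 IDs. ENSDARG00000043806 had -0.31 ± 0.09 (adjusted p = 0.126) and ENSDARG00000104267 had -0.19 ± 0.07 (adjusted p = 0.203), and the own changes of both were negative in both genotypes. In the additive edgeR fit none of these passed the adjusted threshold. With the library set as a term, ENSDARG00000043806 passed it at -0.31, short of the minimum fold (adjusted p = 0.0907, edgeR). In that fit *TGFBI* (adjusted p = 0.307) and ENSDARG00000104267 (adjusted p = 0.17) did not pass. The exact permutation, two-sided and not adjusted, gave p = 0.0385 for *TGFBI*, 0.00466 for ENSDARG00000043806 and 0.0118 for ENSDARG00000104267. *dmd* itself had a shared log2 fold change of 0.04 ± 0.09 (adjusted p = 0.9, edgeR).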

How the data were processed

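PolyA+ RNA of 2 whole larvae per library was sequenced. The authors trimmed the reads with Trimmomatic and mapped them to the zebrafish transcriptome with Bowtie 1.1.2 through RSEM 1.2.31 (GRCz11 in the submitters' processing notes), and deposited estimated counts and TPM per gene, without a filter. RSEM divides ambiguous reads between genes by estimation, so near-identical genes are uncertain. The kit was stranded, and the strand setting of the counting is not given in the sources used here. The authors tested their counts with DESeq2 1.22.2.

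The deposited expected counts were rounded to whole numbers, and genes with at least 10 counts over the 24 libraries were kept, 25832 of 27659 with at least 1. edgeR 4.0.16 in R 4.3.3 fitted genotype and treatment with its quasi-likelihood test after TMM normalization. A second fit gave each genotype its own change. P-values were adjusted by Benjamini-Hochberg, and a call needed an adjusted value under 0.1, with a log2 fold change beyond 0.6 either way. The biological coefficient of variation was 0.163. Single genes were tested with an exact permutation, two-sided, of treatment within genotype over 850850 arrangements, on log2 normalized counts plus 1. Deposited TPM served for marker sums only. Labels do not say that libraries come from separate spawns, so p-values measure the spread between these libraries.

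Rule for genes in the text: named genes called in the same direction whose mean reached 50 normalized counts, up to 12 each way; 3 called genes with opposite own changes, to which the remaining 1 was added after its values were seen; list members that passed or stand at a list's ends, of which a part is named; and the study's own genes. The *itgb1b.2* of the study could not be matched to 1 ID and is not reported. Members and lists were chosen with earlier results of these data known. List symbols missing from the name table were matched without their paralogue letter, a step added after the files were read. Alternatives were DESeq2 1.42.0, its size factors, other filters, equal weight of the genotypes, a replicate block, the library set, clock components as covariates, other thresholds and each library left out. The procedure was tested on simulated counts. Positions and sequences are not given, since the reference used here holds names only. A member of the nervous system list is not reported here.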

Additional observations from a re-analysis of the deposited data

Results flagged for a closer look

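Outlying libraries were looked for in the groups of 4 to 9 libraries of 16 genes, on the log2 scale, and 3 of 48 groups had one; chance gives about 1 group in 20. *zgc:112964* had 68.5 normalized counts in replicate 3 of the WT sibling controls, where the other 3 had 86.1 to 88.2, and 124 in replicate 8 of the *dmd* mutant controls, where the others had 50.6 to 75.9. *cyp2aa4* had 7.3 in replicate 2 of the *dmd* mutant controls, where the others had 24.2 to 56.4. Both genes were called without any 1 of the 24 libraries.

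The change with eNMES differed between the genotypes in 2 of the called genes, by the test of the difference in edgeR. For *SLC25A48* the *dmd* mutant change minus the WT sibling change was -1.08 on the log2 scale (adjusted p = 0.0454), with 0.31 in *dmd* mutants and 1.39 in WT siblings. For *pih1d2* it was -1.54 (adjusted p = 0.069), with -1.48 in *dmd* mutants and 0.06 in WT siblings.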

How the results depend on the processing

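The shared effect gave 50 called genes, 46 with the same direction in both genotypes. DESeq2 gave 100 and 93, the library set as a term 91 and 86, 2 clock components as covariates 107 and 96, no minimum fold 359 and 354, and an adjusted p under 0.05 gave 17 and 16. Equal weight of the genotypes gave 210 and 159, and there 33.3% of the called genes were higher, against 58.0% of the 50. Other size factors and filters kept the counts at 47 to 49 and 43 to 45. Of the 46 genes, 34 were also called in DESeq2, 32 with equal weight, 40 with clock components and 46 with the library set. With the replicate number within genotype as a block the counts were 35 and 33, and 16 of the 46 remained. In that fit number 6 of the mutants set an eNMES library of the low *PER2* set against a control of the high set. Libraries without a same-numbered partner (*dmd* eNMES 9 and 10, *dmd* control 1 and WT control 4) add nothing to the treatment estimate there. Deviations of same-numbered libraries correlated between -0.142 and 0.26, over 0.1 in 4 of 7 *dmd* mutant and 0 of 3 WT sibling pairs; 6 of 14 mutant and 0 of 6 sibling libraries correlated best with their own number. As not every pair passed 0.1 and no label gives a number a shared origin, the numbers were not taken as pairs.

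Leaving out 1 library at a time gave 21 to 76 called genes, 20 to 71 of the same direction, and 219 to 459 genes with an unadjusted p under 0.05 in each genotype in the same direction. Over 79 single genes and 2503 such values no called change reversed, 2045 stayed on their side of the threshold and 455 lost the call; the cause was not tested. DESeq2 gave no adjusted p for 13 of the 79. The 32 permutation values at pseudocounts of 0.5 and 5 stayed on their side of 0.05. Depth limits the genes under 10 normalized counts, where libraries at 0 make fold changes uncertain.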
